A study of Mus musculus with 4 samples.

Results

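The CpGs described here are those that reduced representation bisulfite sequencing (RRBS) read on both DNA strands. They were taken as autosomal pairs of adjacent listed positions, p and p+1, each with at least 20 calls in the iPSC library, the iPSC-DA library and the mdDA library, and with no listed position directly beside the pair in any library. A call is 1 read that shows the cytosine as methylated or unmethylated, and the level of a position is its percent of methylated calls. This choice used the number of calls and the positions, and it did not use the levels. It gave 55192 pairs, whose 110384 positions were 17.6% of the 627348 autosomal positions with at least 20 calls in the same libraries. The number of pairs per autosome ran from 1655 on chromosome 16 to 4505 on chromosome 11.

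The sequence CG is its own reverse complement, so that a CpG carries a cytosine on each strand. Replication leaves the new strand unmethylated, and DNMT1 copies the mark onto it, whereas the DNMT3 enzymes methylate CpGs that carry no mark on either strand. A CpG read on both strands therefore shows whether a measured level, or a gain of methylation, is found on both of them. In the reference orientation p is the cytosine of the plus strand and p+1 that of the minus strand. Bisulfite sequencing reads each strand from its own molecules, and the tables hold counts per position, so that both marks of 1 DNA molecule were not observed.

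The study asked how far dopaminergic (DA) neurons made from mouse iPSCs carry the methylome of mesodiencephalic DA (mdDA) neurons. Genomic DNA of 4 libraries was read, with 1 library per condition. The iPSCs were of the Pitx3 Gfp/+ strain, in which green fluorescent protein marks cells that express the DA transcription factor PITX3. The iPSC-DA neurons were of the same strain, were differentiated for 4 weeks with stromal feeder cells and were sorted on PITX3-GFP, and the mdDA neurons were Pitx3 Gfp/+ cells sorted from E14.5 embryos. The NESTIN-GFP precursors came from another strain, Nestin Gfp/+, and were collected after 14 days of differentiation. Whether the iPSC library and the iPSC-DA library came from the same clone is not given in the sources used here. Without replicate libraries, every comparison below is between libraries or between the strands within a library, and says nothing on the spread between cultures or animals.

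The median of calls at p was 103 in the iPSC library, 105 in the iPSC-DA library and 87 in the mdDA library. The precursor library was the shallowest, and 19438 pairs (35.2%) also had at least 20 calls on both strands there. Values of the precursor library are for this subset. Reads amplified by PCR are not independent molecules, so that the Wilson intervals given here cover counting error only and the p-values are too small.

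Around the pairs, the listed positions followed the reach of the reads. On average a base 3 to 39 bp downstream of p was listed for 15.6% of the pairs, and a base 41 to 60 bp downstream for 8.18%. The share dropped from 14.3% at 39 bp to 7.02% at 41 bp, which is where a read of 40 bases that starts at p ends, and the upstream side mirrored it. Where a position with at least 20 calls lay within this reach, its calls were within 0.8 to 1.25 times those of the strand facing it at 76966 of 83811 positions (91.8%), and within that range of the other strand at 11.0%. Both measurements are what reads starting at the pair and running outward would give, as at a site cut by MspI, the enzyme that opens CCGG. At such a site the strands would be read from neighboring fragments, p from the downstream fragment and p+1 from the upstream one. Another adjacent pair lay within 40 bp at 43881 of the pairs (79.5%), and the measurements above do not separate these pairs. Whether both of their strands were read from the same fragment was not tested. The genome sequence of this build was not used, so that the cut sites are inferred.

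**Figure D1:**
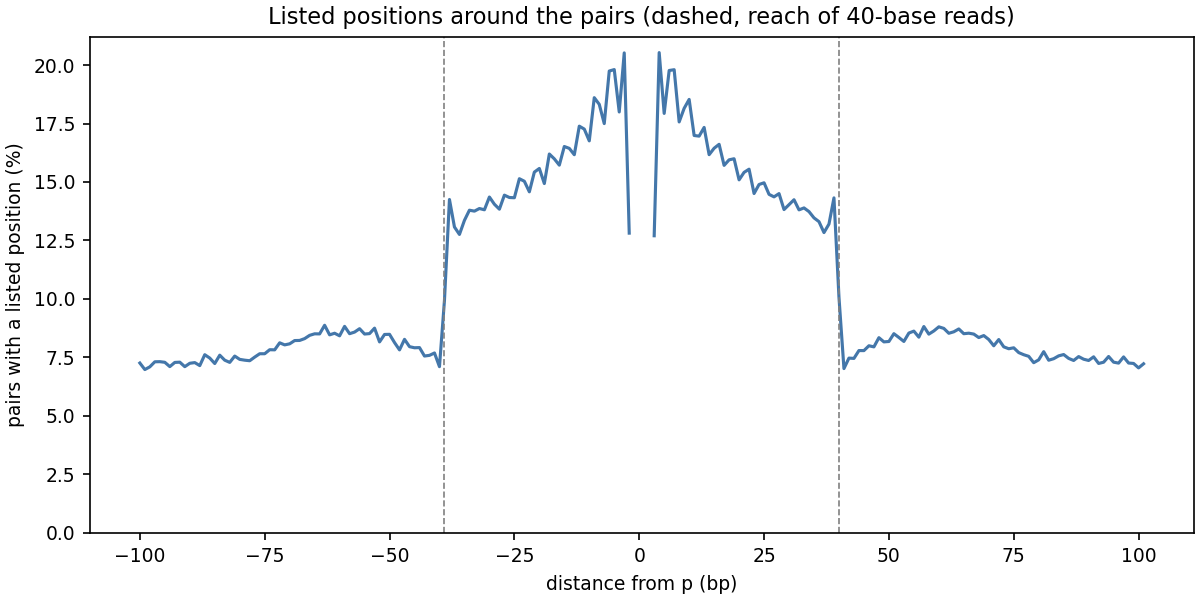
Percent of the 55192 pairs (y axis) with a listed position at each distance from p in bp (x axis). Dashed lines mark the reach of reads of 40 bases, where the share falls from 14.3% at 39 bp to 7.02% at 41 bp downstream.

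The number of calls differed between the strands of a pair. The median ratio of the deeper strand to the shallower was 1.39 in the iPSC library, 1.54 in the iPSC-DA library and 1.59 in the mdDA library. The log2 ratio of the calls of the strands correlated between libraries with r of 0.823 to 0.871 over the 55192 pairs.

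In each library the mean levels of the strands were alike. In the iPSC library the mean level was 10.6% on both strands, in the iPSC-DA library 23.6% on both, and in the mdDA library 13.8% on p and 13.7% on p+1. The mean absolute difference between the strands of a pair was 4.18 points in the iPSC library, 7.03 points in the iPSC-DA library and 4.42 points in the mdDA library, with medians of 1.23, 3.30 and 1.42 points. Levels on the strands correlated with r of 0.899, 0.904 and 0.935, in the same order, and with r of 0.965 in the precursor library, as a description over pairs that share a library and its depth. The pairs were thus close in level on average, and their spread was above counting error. The mean squared difference was 3.66 times that expected from the binomial error of the calls in the iPSC library, 4.84 times in the iPSC-DA library, 3.83 times in the mdDA library and 3.32 times in the precursor library.

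A strand difference was called when Fisher's exact test of the calls on p against those on p+1 gave an adjusted p-value under 0.05 (Benjamini-Hochberg over all pairs) and the levels differed by at least 20 points. By this rule 1688 pairs (3.06%, interval 2.92 to 3.21) differed in the iPSC library, and 1601 (2.90%, 2.76 to 3.04) in the mdDA library. In the iPSC-DA library 3928 pairs (7.12%, 6.91 to 7.33) differed. Of the pairs of the precursor library 257 (1.32%, 1.17 to 1.49) differed. The higher strand was p in 849, 1997 and 817 pairs of the iPSC, iPSC-DA and mdDA libraries, so that neither strand was favored. The share called on an autosome ran from 2.44% to 3.80% in the iPSC library, from 5.95% to 8.11% in the iPSC-DA library and from 2.33% to 3.49% in the mdDA library. The shares are not comparable between the precursor library and the rest, since the pairs that were also deep there had fewer differences elsewhere too, with 0.509% called in the iPSC library, 3.71% in the iPSC-DA library and 0.545% in the mdDA library.

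**Figure D2:**
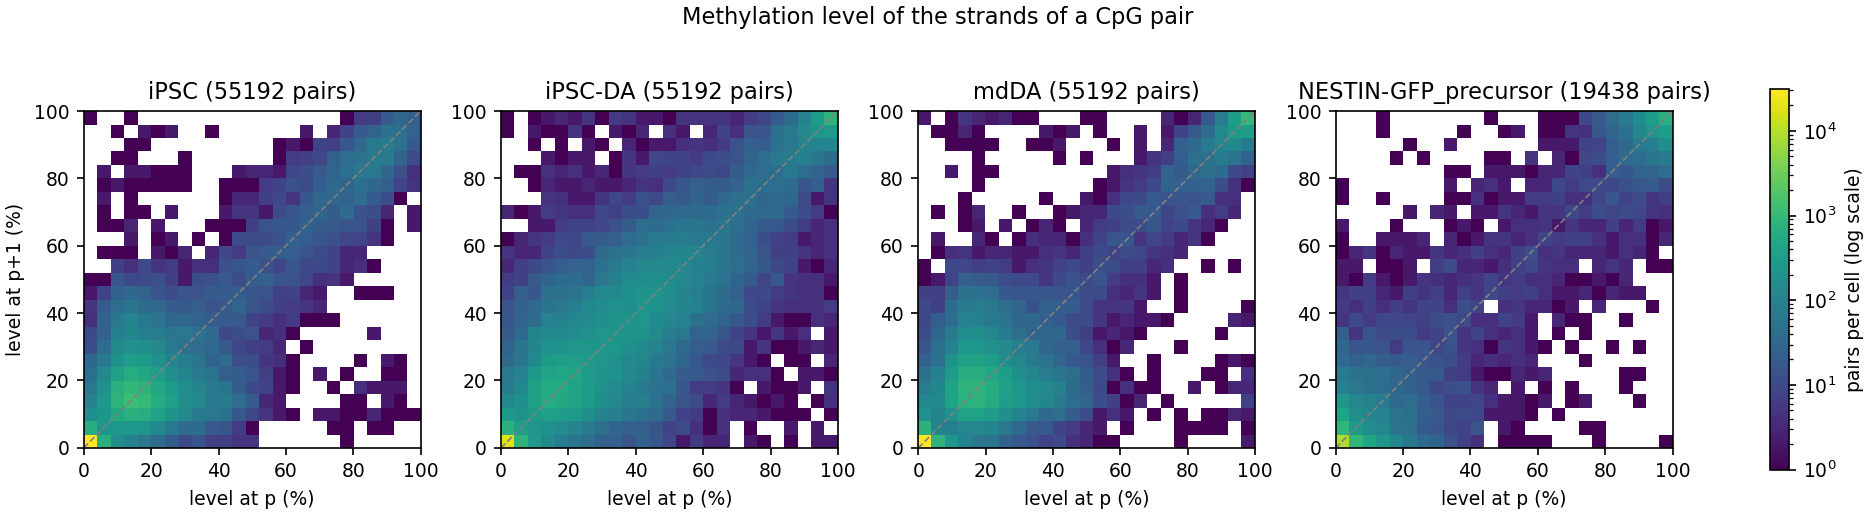
Level at p (x axis, %) against level at p+1 (y axis, %) in each library, with the number of pairs per cell on a log color scale and a dashed line where the strands are equal. Pairs lie along the line at all levels in the iPSC-DA library, where 3419 pairs were between 40% and 60% on both strands, while 402 were so in the iPSC library and 263 in the mdDA library.

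Intermediate levels on both strands of a CpG were more frequent in the iPSC-DA library than in the iPSC and mdDA libraries. Both strands were between 40% and 60% in 3419 pairs of the iPSC-DA library (6.19%, interval 6.00 to 6.40). This held for 402 pairs of the iPSC library (0.728%, 0.661 to 0.803) and for 263 of the mdDA library (0.477%, 0.422 to 0.538). Where p was between 40% and 60% in the iPSC-DA library (6995 pairs), the median of p+1 was 44.3%, with quartiles of 34.2% and 54.0%. In the mdDA library, where p was in the same range (1158 pairs), the median of p+1 was 24.4%, with quartiles of 16.4% and 43.9%. Exactly 1 strand was between 40% and 60% in 7282 pairs of the iPSC-DA library (13.2%), 1557 of the iPSC library (2.82%) and 1801 of the mdDA library (3.26%). A strand under 20% faced one of 20% to 80% in 7985 pairs of the iPSC-DA library (14.47%), 8041 of the iPSC library (14.6%) and 8980 of the mdDA library (16.3%). The extreme case was rare. A strand under 20% faced a strand of at least 80% in 38 pairs of the iPSC library, 56 of the iPSC-DA library, 53 of the mdDA library and 6 of the precursor library.

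Agreement depended on the mean level of the pair. Below a mean of 5% the strands differed by 0.799 points on average in the iPSC library, 1.02 points in the iPSC-DA library and 0.935 points in the mdDA library. At a mean of 95% or more, they differed by 3.21, 2.53 and 2.23 points. In both of these ranges a difference of 20 points cannot occur, and the mean squared difference was 1.16 to 2.13 times the binomial value. Between 20% and 40% the called share was 20.2% in the iPSC library, 16.7% in the iPSC-DA library and 14.6% in the mdDA library. Between 40% and 60% it was 11.8% (interval 9.81 to 14.2) of 819 pairs in the iPSC library, 14.3% (13.5 to 15.2) of 7036 in the iPSC-DA library and 18.6% (15.7 to 21.9) of 597 in the mdDA library, where the mean squared difference was 11.8 times the binomial value. Between 60% and 80% the order was another, with 2.85% (interval 1.98 to 4.09) of 982 pairs called in the iPSC library, 7.82% (5.87 to 10.3) of 563 in the mdDA library and 17.7% (16.2 to 19.3) of 2248 in the iPSC-DA library. The median of calls in this last range was 57, 85 and 86 at p and 60, 78 and 84 at p+1, in the same order, and the mean squared difference was 1.76, 4.90 and 5.93 times the binomial value. The part of depth in these shares was not tested. The called share was thus higher in the mdDA library than in the iPSC-DA library at 40% to 60%, and lower at 60% to 80%. At 40% to 60% the median difference of the strands was alike, at 9.89 points in the mdDA library and 9.86 points in the iPSC-DA library. The 90% quantiles were 64.7 and 27.6 points, so that the libraries differed there in the largest differences rather than in the typical one.

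**Figure D3:**
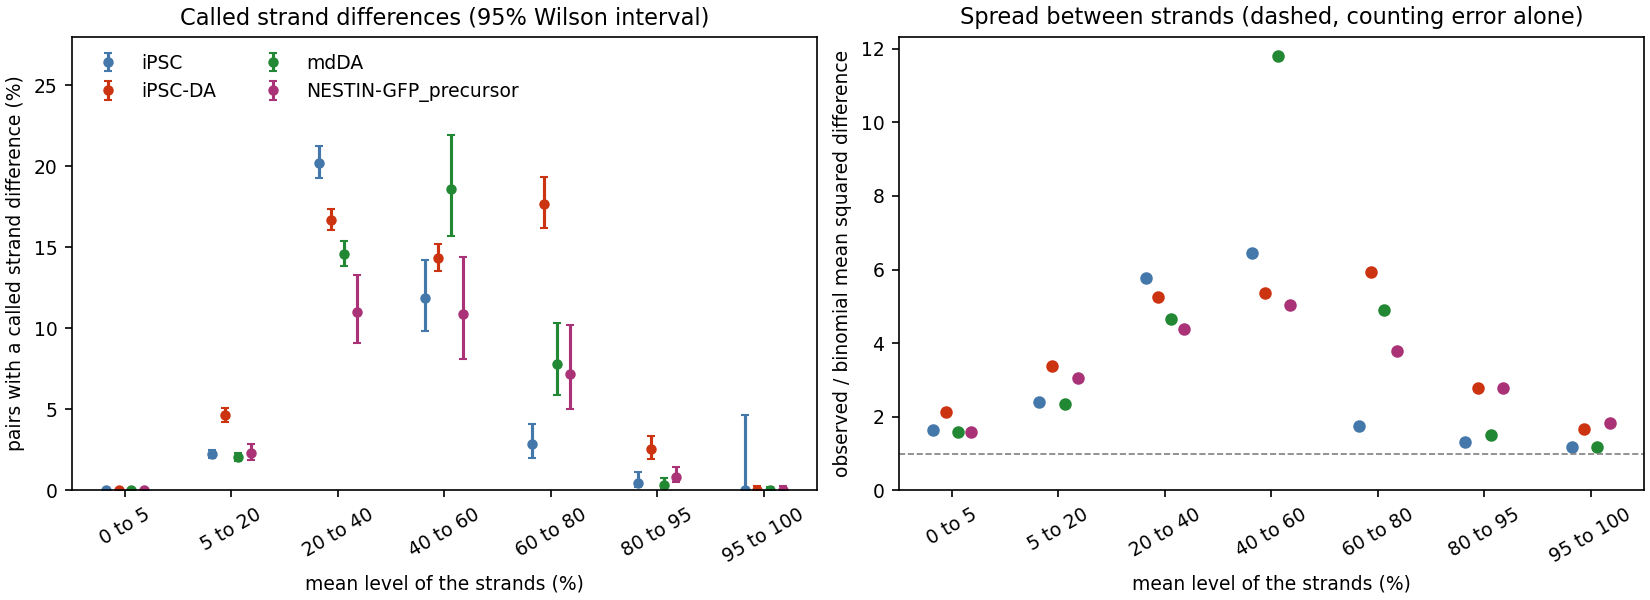
Left, percent of pairs with a called strand difference (y axis) by the mean level of the strands (x axis, %), with 95% Wilson intervals. Right, the mean squared difference of the strands over its binomial expectation, which is 1 (dashed) for counting error alone and reached 11.8 in the mdDA library between 40% and 60%. At 60% to 80% the called share was 17.7% in the iPSC-DA library and 2.85% in the iPSC library.

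Solitary pairs beside an unmethylated neighbor had levels above that neighbor, by an amount that differed between the libraries. Pairs were called solitary when no other adjacent pair lay within 80 bp (10052 pairs) and grouped when another lay within 40 bp (43881 pairs). The level of a solitary pair was set beside that of the nearest position within the same reads, taken where its calls matched. Where that neighbor was under 5% (median 0% in the iPSC library), the pair itself had a median level of 15.3% in the iPSC library, with 5% and 95% quantiles of 7.25% and 29.5% (10264 positions). In the iPSC-DA library the median was 17.8% (5928 positions) and in the mdDA library 17.9% (9223 positions). In the precursor library it was 3.70%, with quantiles of 0% and 22.6% (289 positions). At 202 positions whose neighbors were under 5% in all 4 libraries, the medians were 15.0%, 16.5%, 16.9% and 3.28%. Where the neighbor was under 5%, the opposite strand of the pair was also above it. Its medians were 15.8%, 18.8%, 18.9% and 9.52% in the iPSC, iPSC-DA, mdDA and precursor libraries. In each library the median of the opposite strand was thus above that of the strand facing the neighbor, and most so in the precursor library. The choice of a low neighbor was made on the reads of the facing strand only.

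Where the neighbor was at 95% or more, the solitary pairs had medians of 92.7%, 97.1%, 97.6% and 96.6% in the iPSC, iPSC-DA, mdDA and precursor libraries, with neighbors at medians of 96.4%, 97.7%, 97.5% and 100%. In grouped pairs with a neighbor under 5% the median was 0.787% in the iPSC library, and the upper quartile was 11.9%. The source of this offset above the neighbor was not tested. Levels of about 15% to 18% at a solitary pair in the iPSC, iPSC-DA and mdDA libraries therefore cannot be read as those of the surrounding DNA. Pairs under 5% on both strands in the iPSC library (31522 pairs) lack the offset there, and are given separately below.

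**Figure D4:**
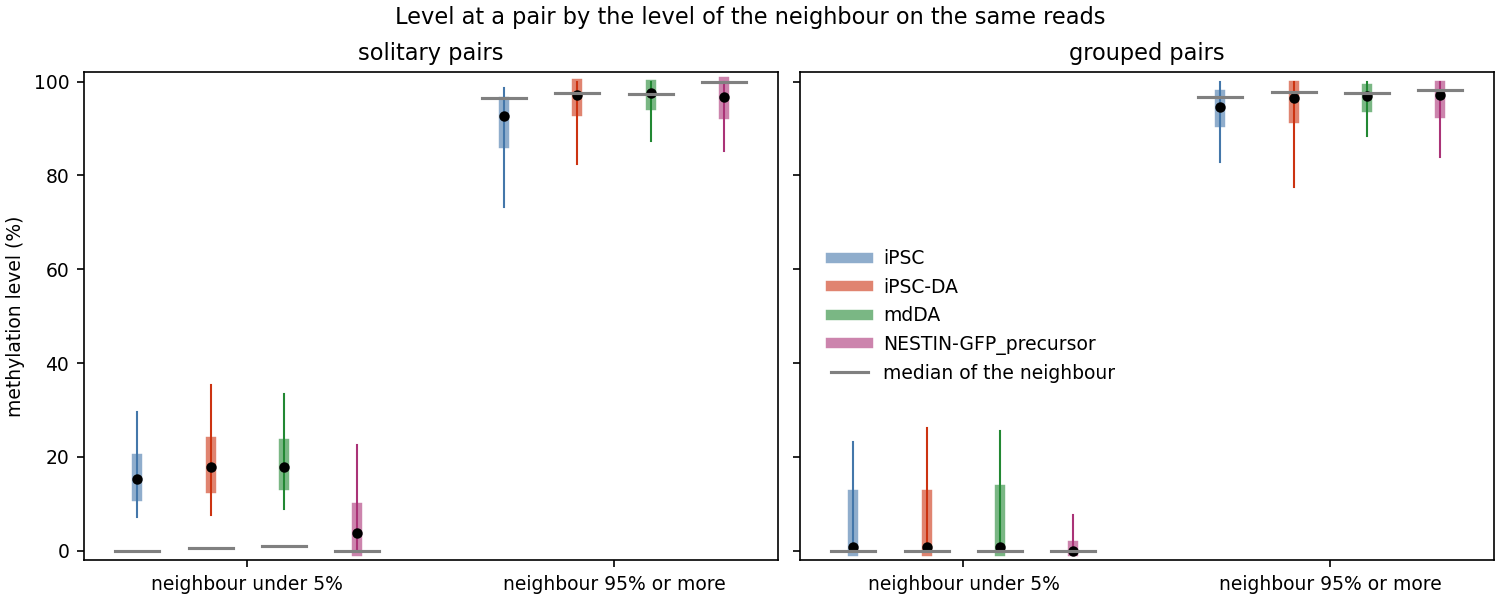
Methylation level (y axis, %) of solitary pairs (left) and grouped pairs (right), by whether the neighbor on the same reads was under 5% or at 95% or more (x axis). Dots are medians, thick bars quartiles, thin lines the 5% to 95% quantiles and grey bars the median of the neighbor. Solitary pairs beside an unmethylated neighbor had medians of 15.3%, 17.8% and 17.9% in the iPSC, iPSC-DA and mdDA libraries, and of 3.70% in the precursor library.

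Strand differences recurred at the same pairs. Of the 5269 pairs called in at least 1 of the iPSC, iPSC-DA and mdDA libraries, 563 were called in all 3, and in 562 of them the same strand was higher throughout. The 811 pairs called in both the iPSC and the mdDA library were 48.0% of the former and 50.7% of the latter, and all had the same strand higher. The 855 pairs called in both the iPSC and the iPSC-DA library were 50.7% of the former and 21.8% of the latter. The strand difference correlated across all pairs with r of 0.658 between the iPSC and mdDA libraries, and with r of 0.446 and 0.458 between the iPSC-DA library and these.

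In the 562 recurring pairs the higher strand had a median of 42.0% in the iPSC library, 48.6% in the iPSC-DA library and 44.0% in the mdDA library, and the lower strand 11.6%, 15.0% and 13.4%. In 34 of them the higher strand was at least 80% and the lower under 30% in all 3 libraries. The precursor library had calls on both strands at 288 of the 562 pairs (51.2%), whereas it had them at 93.0% of all pairs, and at 2 of the 34. At the 31 recurring pairs with at least 20 calls on both strands in the precursor library, the same strand was higher in 22. The recurring pairs were thus less often read on both strands in the library from the other strain, and the part of strain in this was not tested.

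Among recurring pairs with at least 50 calls on each strand, 3 had the largest difference in the library where it was smallest. Coordinates are those of the deposited files, which fit NCBIM37 (mm9), and the genes at these positions were not looked up. At chr3:119880419-119880420 p was at 16.3%, 20.6% and 21.7% in the iPSC, iPSC-DA and mdDA libraries, and p+1 at 95.7%, 99.1% and 98.9%. The pair at chr12:5058660-5058661 had p at 16.2%, 18.1% and 19.05%, and p+1 at 92.4%, 99.1% and 96.0%. The pair at chr18:83121065-83121066 had the opposite order, with p at 89.8%, 93.4% and 92.2%, and p+1 at 13.7%, 5.22% and 8.06%. The same strand was higher in all 3 libraries by the way these pairs were chosen. The precursor library had 0 calls at each of these positions. The largest adjusted p-value of Fisher's test over the libraries was 1.4e-29, 1.8e-24 and 2.4e-29.

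A part of the strand differences of the iPSC-DA library was at CpGs that were unmethylated in the other libraries. Of its 3928 called pairs, 1125 (28.6%) had a mean level under 5% in the iPSC library, and 1103 (28.1%) in the mdDA library. Of all 55192 pairs, 32338 had such a mean in the iPSC library and 32001 in the mdDA library. Such pairs were thus less frequent among the called pairs than among all pairs. This comparison is not a test, since the 21042 pairs with a mean under 5% in the iPSC-DA library cannot be called by the rule. Of the pairs called in the mdDA library, 18 (1.12%) had a mean under 5% in the iPSC library. Among the 31522 pairs under 5% on both strands in the iPSC library, the strands of the iPSC-DA library differed by 4.16 points on average, correlated with r of 0.905, and were called different in 1049 pairs (3.33%, interval 3.14 to 3.53). In the mdDA library the same pairs differed by 0.976 points, and 8 (0.0254%, 0.0129 to 0.0501) were called. Few of these pairs were methylated in the mdDA library, where 159 had a mean level of 20% to 80%, while 7928 did in the iPSC-DA library. At these levels 11.4% (10.7 to 12.1) were called in the iPSC-DA library and 2.52% (0.983 to 6.29) in the mdDA library.

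These differences extended along the reads. Of the 1049 pairs under 5% in the iPSC library and called in the iPSC-DA library, 391 had a neighbor with matching calls on either side. There the higher strand had a median of 51.3% and its neighbor on the same reads 49.1%, while the lower strand had 20.2% and its neighbor 19.7%. The neighbor of the higher strand was above that of the lower strand in 384 of 391 pairs (98.2%, interval 96.4 to 99.1), by at least 20 points in 308. A called difference at these CpGs was thus one between the reads running to the right and those running to the left, and was shared by the next CpG on those reads. Across the 2557 such pairs with a mean of 20% to 80%, called or not, the difference between the strands and that between the neighbors correlated with r of 0.797. Over all called pairs of the iPSC-DA library with both neighbors (2391 pairs), the medians were 47.9% on the higher strand and 23.1% at its neighbor. The neighbors differed by at least 20 points in 897 of these (37.5%). Over all called pairs of the iPSC library with both neighbors (1190 pairs), these medians were 39.3% and 6.59%. The neighbors differed by at least 20 points in 116 of these (9.75%). In the mdDA library they did in 151 of 1133 pairs (13.3%). The source of the difference between these reads was not tested.

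Methylation gained from iPSCs to iPSC-DA neurons was found on both strands of most pairs. A rise was called at a position when Fisher's exact test between the libraries gave an adjusted p-value under 0.05 (over all 627348 positions) and the level rose by at least 20 points. This held for 29.4% of all positions tested and for 27.8% of those in pairs, so that the pairs resembled the background. A rise was called on at least 1 strand in 17776 pairs and on both in 12899 (72.6%, interval 71.9 to 73.2). It was called on p alone in 2447 pairs and on p+1 alone in 2430. Of the pairs with a rise on p, 84.0% also had a rise on p+1. Pairs called on both strands rose by a median of 33.9 points on the strand that rose less and of 44.0 points on the other.

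In the 4877 pairs called on 1 strand alone, the called strand rose by a median of 28.6 points. The change on the other strand, which did not pass the rule, had a median of 13.8 points, with quartiles of 7.77 and 17.8. It was above 0 in 91.8% of these pairs, at least 10 points in 67.9% and below 0 in 329 pairs. In 3 pairs a rise on 1 strand was joined by a called fall on the other. Rises read on p were also looked up on p+1. Pairs with a rise of 20 to 30 points on p (4512 pairs) had a median change of 26.4 points on p+1, with quartiles of 17.5 and 34.9. Pairs with a rise of 30 to 40 points on p (4589 pairs, median 34.7) had a median rise of 33.7 points on p+1, with quartiles of 25.3 and 42.1. For rises of 50 to 60 points on p (1469 pairs, median 54.1) the median on p+1 was 46.1 points. Chosen on p+1 instead (1555 pairs, median 54.1), the median on p was 45.2 points. The lower value was thus on the strand that was not used for choosing. The changes of the strands correlated with r of 0.853 over all pairs.

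The gain from iPSCs to mdDA neurons was less frequent in the pairs than over all positions, and most of the pairs with a called rise had it on both strands. A rise was called at 9.38% of all positions and at 4.56% of those in pairs. Of 2944 pairs with a rise on at least 1 strand, 2087 (70.9%, interval 69.2 to 72.5) had it on both. Pairs with a rise of 20 to 30 points on p (849 pairs, median 24.0) had a median rise of 16.3 points on p+1, with quartiles of 5.79 and 28.2. Chosen on p+1 instead (811 pairs, median 24.0), the median on p was 15.6 points. Pairs with a rise of 30 to 40 points on p (463 pairs) had a median rise of 32.5 points on p+1, and those of 50 to 60 points (340 pairs) had 54.9 points. From mdDA to iPSC-DA neurons 21.4% of all positions and 23.1% of those in pairs rose, and 10489 of 15063 pairs (69.6%, 68.9 to 70.4) rose on both strands. These comparisons share libraries, and each stands by itself. The share from iPSCs to mdDA neurons was lower where more positions were listed around the pair, with 72.9% (71.1 to 74.5) of 2593 rising pairs with at most 15 listed positions within 100 bp, 60.3% (54.1 to 66.2) of 247 with 16 to 26 and 47.1% (37.8 to 56.6) of 104 with 27 or more.

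**Figure D5:**
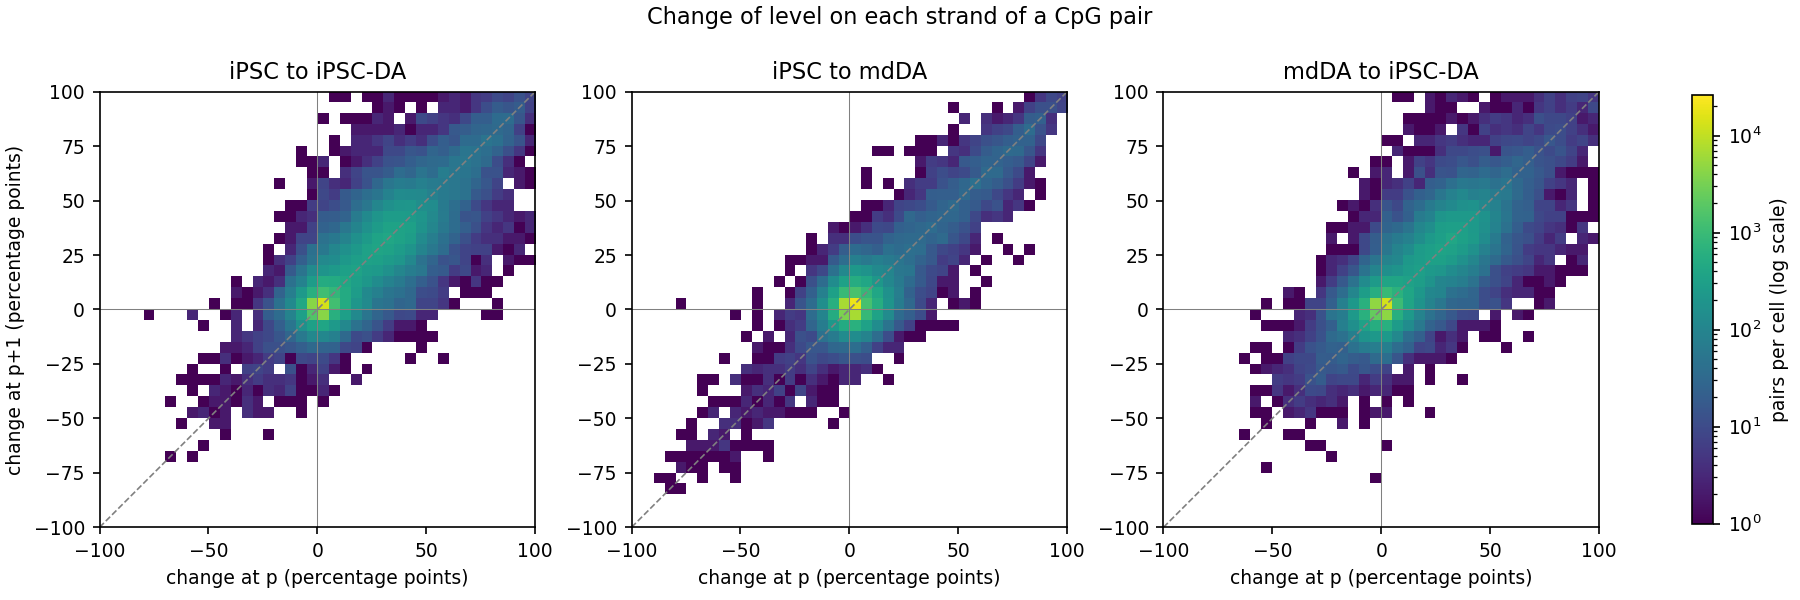
Change of level in percentage points at p (x axis) against that at p+1 (y axis) for the 3 comparisons, with the number of pairs per cell on a log color scale. The dashed line marks equal change. Changes lie along it, with r of 0.853 from iPSCs to iPSC-DA neurons, 0.848 from iPSCs to mdDA neurons and 0.824 from mdDA to iPSC-DA neurons.

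Falls were rare in the pairs, and a smaller share of them than of the rises was called on both strands. From iPSCs to iPSC-DA neurons 1.29% of all positions and 0.392% of those in pairs fell by the same rule, and 108 of 325 pairs (33.2%, interval 28.3 to 38.5) fell on both strands. From iPSCs to mdDA neurons 1.17% of all positions and 0.390% of those in pairs fell. Of 283 pairs with a fall, 147 (51.9%, 46.1 to 57.7) fell on both strands. From mdDA to iPSC-DA neurons 2.60% of all positions and 0.858% of those in pairs fell. Of 707 pairs with a fall, 240 (33.9%, 30.6 to 37.5) fell on both strands. Where a fall was called on 1 strand alone, the level of the other strand also went down in most pairs. It did so in 70.5%, 87.5% and 78.4% of them, in the order of these comparisons, by a median of 7.24, 15.5 and 9.64 points over all of them.

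The share was also counted in pairs without the offset in the iPSC library. Among the 31522 pairs under 5% on both strands in the iPSC library, 8742 rose on at least 1 strand in the iPSC-DA library and 6956 (79.6%, interval 78.7 to 80.4) on both. In the mdDA library 238 rose and 199 (83.6%, 78.4 to 87.8) did so on both. Grouped pairs rose on both strands in 74.6% (73.9 to 75.4) of 13387 pairs from iPSCs to iPSC-DA neurons, and solitary pairs in 66.7% (65.2 to 68.1) of 3917. With a minimum of 50 calls throughout, 7781 of 10051 rising pairs (77.4%) rose on both strands.

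The 3 largest rises on the strand that rose less, among pairs with at least 50 calls, were nearly complete on both strands. The pair at chr6:48547554-48547555 went from 1 of 122 calls to 134 of 140 (95.7%, interval 91.0 to 98.0) on p, and from 0 of 114 to 124 of 131 (94.7%, 89.4 to 97.4) on p+1. The pair at chr7:52263244-52263245 went from 3.36% to 99.3% on p and from 2.54% to 96.6% on p+1, and that at chr11:77560804-77560805 from 3.57% to 98.6% and from 0.559% to 94.4%. All of them were also methylated in the mdDA library, at 95.4% to 100% over the 6 positions, and in the precursor library, at 92.0% to 100%. They were thus low in the iPSC library and high in the other 3.

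Strands that changed unequally were a minority of the pairs. A Wald test of the difference between the changes of the strands, with 1 methylated and 1 unmethylated call added to each position, an adjusted p-value under 0.05 over all pairs and a size of at least 20 points, called 1745 pairs (3.16%, interval 3.02 to 3.31) from iPSCs to iPSC-DA neurons. It called 1555 (2.82%, 2.68 to 2.96) from mdDA to iPSC-DA neurons and 41 (0.0743%, 0.0548 to 0.101) from iPSCs to mdDA neurons. Of the 17776 pairs that rose in iPSC-DA neurons 9.20% changed unequally, and of the 2944 that rose in mdDA neurons 1.15%. Without a test, changes of the strands 20 points or more apart were also counted. At mean rises of 20 to 30 points they made up 16.8% of 4672 pairs in iPSC-DA neurons and 13.9% of 628 in mdDA neurons. At 60 to 100 points they made up 13.9% of 1740 and 5.22% of 804. The part of depth and of the adjustment over all pairs in the called shares was not tested. Of the 1745 pairs the change was larger at p in 892 and at p+1 in 853. In 110 of them no rise was called on either strand. Over the 1745 pairs the larger change had a median of 48.8 points and the smaller one 14.6 points. In 432 pairs 1 strand rose by at least 20 points while the other rose by less than 5.

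The strands of 1452 of the 1745 pairs (83.2%) were called different in the iPSC-DA library, and those of 147 (8.42%) in the iPSC library. The count depends on how the error is modelled. With the binomial variances multiplied by the observed spread between the strands of each library, 65 pairs were called from iPSCs to iPSC-DA neurons and 5 from iPSCs to mdDA neurons. Within 1.5 times equal calls on the strands, the share was 2.05% and 0.0192%.

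Among pairs with at least 50 calls, the most unequal change was at chr2:17961357-17961358. There p went from 0 of 83 calls in the iPSC library to 59 of 64 (92.2%, interval 83.0 to 96.6) in the iPSC-DA library, whereas p+1 went from 4 of 90 to 43 of 144 (29.9%, 23.0 to 37.8), with an adjusted p-value of 1.3e-25 in the Wald test over all pairs. In the mdDA library both strands were low, at 0 of 81 and 1 of 89 calls. At chr3:69402507-69402508 p+1 rose from 11.2% to 77.4% while p was at 11.3% and 14.3% (adjusted p-value 3.2e-11 in the same test), and in the mdDA library they were at 17.3% and 16.0%. At chr10:76424834-76424835 p+1 rose from 11.5% to 98.4% and p from 28.8% to 55.3% (1.7e-08), beside 16.7% and 40.4% in the mdDA library.

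Precursors gave a view of the same pairs that played no part in choosing the rises. At the 5738 pairs with enough calls in the precursor library that rose on both strands from iPSCs to iPSC-DA neurons, the precursors had a median of 16.7% on the strand that rose more and of 16.0% on the other. In iPSC-DA neurons the same medians were 53.5% and 43.8%, and in mdDA neurons both were 1.35%. The strands of these pairs correlated in the precursor library with r of 0.95. At the 12401 pairs without a rise the precursors had medians of 0% on both strands. The higher level at the gained pairs was thus also present on both strands in the precursor library. Of the 551 pairs with an unequal rise, the strand that rose more in iPSC-DA neurons was the higher one in 296 pairs and the lower one in 226 in the precursor library, with medians of 10.0% and 8.05%. In the mdDA library it was the higher one in 208 and the lower one in 198.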

How the data were processed

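The RRBS libraries were 4, with 1 per condition: iPSCs, iPSC-DA neurons, mdDA neurons and NESTIN-GFP precursors, which the labels call Nestin-GFP neurons. The authors trimmed reads of 40 bases with Trim Galore 0.3.5 and called methylation with Bismark 0.10.1, per the labels, after alignment with Bareback. They deposited for each cytosine the counts of methylated and unmethylated calls, not normalized, and the percent methylated, without a filter on depth. The build is not given in the sources used here. Positions on chromosome 1 reach 197192264, which fits NCBIM37 (mm9). No annotation or sequence of that build was used, so that no gene is named.

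Levels were computed from the deposited counts. Total calls were 68545752 for iPSCs, 79648099 for iPSC-DA neurons, 72993474 for mdDA neurons and 31419979 for precursors. A difference needed an adjusted p-value under 0.05 (Benjamini-Hochberg) and 20 points. Fisher's exact test compared strands over all pairs and libraries over all positions, and a Wald test compared the changes of the strands. Pairs, lists and tests were chosen with earlier results of these data known. Named pairs had at least 50 calls per strand, and were the 3 with the largest rise on the strand that rose less, the 3 with the most unequal change and the 3 with the largest strand difference common to 3 libraries. Shares have 95% Wilson intervals. Alternatives were a minimum of 10 or 50 calls, a size of 10 or 30 points, similar calls on both strands, positions above the 99.9th percentile of calls left out, no condition on neighboring positions, and 20 to 60 calls. The code was tested on simulated data and ran in Python 3.11.15 with numpy 2.4.6, scipy 1.17.1, pandas 2.3.3 and matplotlib 3.10.9.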

Additional observations from a re-analysis of the deposited data

Results flagged for a closer look

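Pairs of the X chromosome were not part of the report. Chosen by the same rule, 803 of them showed called strand differences in 1.49% of pairs in the iPSC library (interval 0.857 to 2.59), in 7.35% in the iPSC-DA library (5.74 to 9.36) and in 1.49% in the mdDA library (0.857 to 2.59). Their median mean level was 1.35% in the iPSC library, 27.4% in the iPSC-DA library and 23.6% in the mdDA library. Levels on the strands correlated with r of 0.872, 0.890 and 0.894, and differed by 4.79, 8.37 and 7.46 points on average. The median of calls at p was 52, 100 and 68, in the same order, while it was 103, 105 and 87 at the autosomal pairs. The called shares are therefore not comparable with those of the autosomal pairs. These pairs were noted because they lie outside the measured set and hold called differences.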

How the results depend on the processing

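No paired analysis was possible because each condition had 1 library. The share of rising pairs that rose on both strands stayed between 60.1% and 79.6% from iPSCs to iPSC-DA neurons, 56.9% and 83.6% from iPSCs to mdDA neurons, and 54.7% and 78.9% from mdDA to iPSC-DA neurons. In all, 73 of 91 alternative values were within 1.5 times the reported one. With a size of 30 points, called strand differences fell to 1.1% (iPSC), 3.23% (iPSC-DA) and 1.18% (mdDA), and unequal changes to 1.9% (iPSC to iPSC-DA) and 1.73% (mdDA to iPSC-DA). With calls of the strands within 1.5 times, unequal changes were 2.05%, 0.0192% (iPSC to mdDA) and 1.76%. Without the deepest positions, unequal changes from iPSCs to mdDA neurons were 0.0454%. In the 1238 pairs with 20 to 60 calls, strand differences were 1.78% (iPSC) and 1.13% (mdDA), and unequal changes from iPSCs to mdDA neurons 0%. Alternatives chosen after seeing the data gave larger shifts. Variances multiplied by the spread between strands gave unequal changes of 0.118%, 0.00906% (iPSC to mdDA) and 0.0924%. Pairs under 5% on both strands in the iPSC library gave strand differences of 2.88% (iPSC-DA) and 0.0127% (mdDA), adjusted over these pairs alone, and unequal changes of 0% from iPSCs to mdDA neurons. A larger size lowers the share of called differences by construction, and the cause of the other shifts was not tested.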

Other observations

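The grouping of the autosomal pairs by the number of listed positions within 100 bp gave further values. Sparse pairs (0 to 15 listed positions, 18417 pairs) rose on at least 1 strand in 39.6% from iPSCs to iPSC-DA neurons and in 14.1% from iPSCs to mdDA neurons. Dense pairs (27 to 76 listed positions, 17073 pairs) did so in 27.2% and 0.609%. From iPSCs to iPSC-DA neurons the rise was on both strands in 73.2% (interval 72.1 to 74.2) of the sparse pairs that rose and in 70.7% (69.4 to 72.0) of the dense ones. From iPSCs to mdDA neurons it was so in 72.9% (71.1 to 74.5) of the sparse and in 47.1% (37.8 to 56.6) of the dense pairs that rose. From iPSCs to iPSC-DA neurons unequal changes were called in 2.65% of the sparse and in 3.60% of the dense pairs.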
